A study of Homo sapiens with 8 samples.

Results

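GPR12, GPR139 and PROKR2 are 3 of the 60286 genes measured in neural cultures grown from the human embryonic stem cell line H1. They were taken as named rows of the expression matrix and followed in all 43693 cells and in the 6579 cells (15.1%) that held 1 or more counts of at least 2 of NEUROD2, NEUROD6 and TBR1. Those 3 genes encode transcription factors of cortical excitatory neurons, and the cells are called gated cells from here on. The receptors were chosen by their levels in 1 of the culture arrangements, 2DCocu, where they differed between treatments, so their values there are given as a description with no test.

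The study profiled single cells of flat (2-D) and organoid (3-D) cultures by split-pool barcoding, to learn what the cultures consist of and whether transcription changes with dopamine, with cocaine or with morphine. The 8 deposited samples were sublibraries of one pool, and the culture of each cell was read from its name. The 46 culture tags in those names name the arrangement, the treatment where there was one and a number, and fall into 17 groups. All cells came from the same H1 line and organoids were taken apart with papain after pooling 2 to 3 per dissociation.

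In 2DCocu there were 4 tags each of AcCoc, AcMor and Vehic. In 3DFusi there were 4 tags of AcCoc, 3 of AcMor and 3 of Vehic. In 2DMono and in 3DMono there were 2 tags each of AcDop, AcMor and Vehic. The other 5 arrangements carried no treatment name: 2DProto2Fjo, 2DProto3Wu and 2DProto4Nic had 2 tags each, and 3DProto1For and 3DProto2Xia had 3 tags each. The labels name the agents dopamine, cocaine and morphine but do not spell out the tag abbreviations, so the tag names are used as they stand. Nothing in the labels says whether tags were separate cultures, and every p-value measures only the spread between tags. In what follows a level of a tag is given in CPM, the gene's expected counts over all counts of the same cells, scaled as usual.

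G protein-coupled receptors sit in the cell membrane and pass a signal from outside the cell to G proteins inside it. GPR12 is an orphan receptor that activates the stimulatory G protein and raises cyclic AMP without a known added ligand, as do its close relatives GPR3 and GPR6. GPR139 is an orphan receptor that couples mainly to Gq, responds to aromatic amino acids, is best known from the medial habenula and has been reported to oppose signalling of the mu opioid receptor. PROKR2 is a Gq-coupled receptor for the peptides prokineticin 1 and prokineticin 2, is needed for growth of the olfactory bulb and is mutated in some people with Kallmann syndrome.

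All 3 genes lie on the minus strand, on GRCh38. GPR12 spans chr13:26755200-26760786 and codes for 334 amino acids in a single coding exon. GPR139 spans chr16:20028239-20073890 and codes for 353 amino acids in 2 coding exons. PROKR2 spans chr20:5299218-5316954 and codes for 384 amino acids in 2 coding exons. No annotated gene overlapped any of them. The RefSeq promoter windows (GRCh38.p14) from 250 bases before to 50 bases after the transcript start are printed because GPR139 and PROKR2 were both lower in 3DMono than in 2DMono and GPR12 did not pass that test. They are chr13:26760737-26761036, chr16:20073841-20074140 and chr20:5316905-5317204, on the minus strand, written 5′ to 3′. Capitals mark matches to the E-box CANNTG, the sequence that NEUROD factors and other basic helix-loop-helix proteins bind.
GPR12: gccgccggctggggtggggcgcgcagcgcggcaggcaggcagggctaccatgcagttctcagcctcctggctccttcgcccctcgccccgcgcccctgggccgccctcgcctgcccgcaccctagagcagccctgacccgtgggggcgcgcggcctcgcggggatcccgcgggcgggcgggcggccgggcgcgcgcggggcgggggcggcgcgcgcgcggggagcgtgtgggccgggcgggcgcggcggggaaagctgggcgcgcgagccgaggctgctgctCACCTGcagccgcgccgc
GPR139: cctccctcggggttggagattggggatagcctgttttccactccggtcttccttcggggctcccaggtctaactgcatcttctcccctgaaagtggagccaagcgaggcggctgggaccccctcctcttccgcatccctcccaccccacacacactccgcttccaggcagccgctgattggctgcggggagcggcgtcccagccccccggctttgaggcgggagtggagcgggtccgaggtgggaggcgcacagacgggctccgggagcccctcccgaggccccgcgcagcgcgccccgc
PROKR2: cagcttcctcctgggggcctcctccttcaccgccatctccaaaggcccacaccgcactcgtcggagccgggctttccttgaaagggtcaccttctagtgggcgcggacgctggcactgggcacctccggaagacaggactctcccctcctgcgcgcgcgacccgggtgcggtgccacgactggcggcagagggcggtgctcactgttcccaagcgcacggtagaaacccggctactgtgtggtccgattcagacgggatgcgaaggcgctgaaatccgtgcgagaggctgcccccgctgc

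The GPR12 window had a GC content of 83.3% and 1 E-box, CACCTG, just after the transcript start. The GPR139 window had a GC content of 70% and the PROKR2 window 67%, with no E-box in either. An E-box was found in 68.9% of all 27305 promoter windows, whose median GC content was 58.3%. RefSeq lists another start for GPR139, whose window held 1 E-box, CAGGTG. The NEUROD-type E-box CAGATG (in 14.8% of all windows), the T-box site GGTGTGA (3.43%) and the cyclic AMP response core TGACG (25%) matched none of these windows on either strand. The 3 promoters thus shared a GC content above the median and none of those 3 motifs.

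Across all cells the matrix held 2629 expected counts of GPR12 in 2014 cells with 1 or more, 6190 of GPR139 in 2952 cells and 3049 of PROKR2 in 2080 cells. Tags held from 3624668 to 58777177 counts in all, and the median cell had 12776. The 8 sublibraries were alike: GPR12 ranged from 2.89 to 3.69 CPM, GPR139 from 7.26 to 8.39 CPM and PROKR2 from 3.52 to 4.24 CPM. The 43693 cells carried 41192 distinct barcodes, of which 2393 occurred in more than 1 sublibrary and 0 under more than 1 tag. Tags numbered 1 stood apart in several groups by their share of gated cells, which was 33.0% in 2DMono Vehic tag 1, 39.0% in 3DMono Vehic tag 1, 38.3% in 3DMono AcMor tag 1, 41.4% in 3DFusi AcCoc tag 1 and 28.3% in 3DFusi Vehic tag 1. Each was also deeper per cell than the other tags of its group, and the gate is a threshold on counts. In 3DMono AcMor the median was 21683 counts per cell in tag 1 and 9501 in tag 2, and in 3DMono Vehic 12252 and 9972.

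The label of excitatory neuron receptors was checked against where the counts lay. Gated cells held 66.1% of GPR12 counts, 48.9% of GPR139 counts and 53.4% of PROKR2 counts, beside 23.5% of the counts of all genes. Most of the remainder lay in other cells with neuron markers (such as STMN2 and SYT1), which held 20% of GPR12, 39.7% of GPR139 and 27.1% of PROKR2 counts. Cells outside the gate with GABAergic markers (1 or more counts of at least 2 of GAD1, GAD2 and SLC32A1) held 10.1%, 6.14% and 7.80%. Mesenchymal-marker cells, which should lack these receptors, held 0.152%, 0.250% and 0.764%. These shares pool arrangements that differ in their share of gated cells and in which receptor they held most of, so they give no order of the receptors. Within 2DMono the mean level in gated cells against all cells was 5.84 against 2.85 CPM for GPR12, 42.9 against 19.7 for GPR139 and 23.3 against 9.43 for PROKR2. The label did not hold in 2DProto3Wu, which had only 2 gated cells. There, 45.1% of GPR12, 52.7% of GPR139 and 51.6% of PROKR2 counts came from cells with GABAergic markers. Only the pooled gated share has that of all genes beside it. Shares of the other marker sets therefore show where counts lay, and not that those cells were rich or poor in a receptor. Nor did it hold for GPR139 in 3DFusi, where pooled gated cells stood at 1.21 CPM and other cells at 1.27. PROKR2 was only somewhat higher in gated than in other cells of 2DProto4Nic (2.43 against 1.95 CPM), 2DProto2Fjo (5.01 against 3.37) and 3DMono (2.82 against 1.86).

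**Figure D1:**
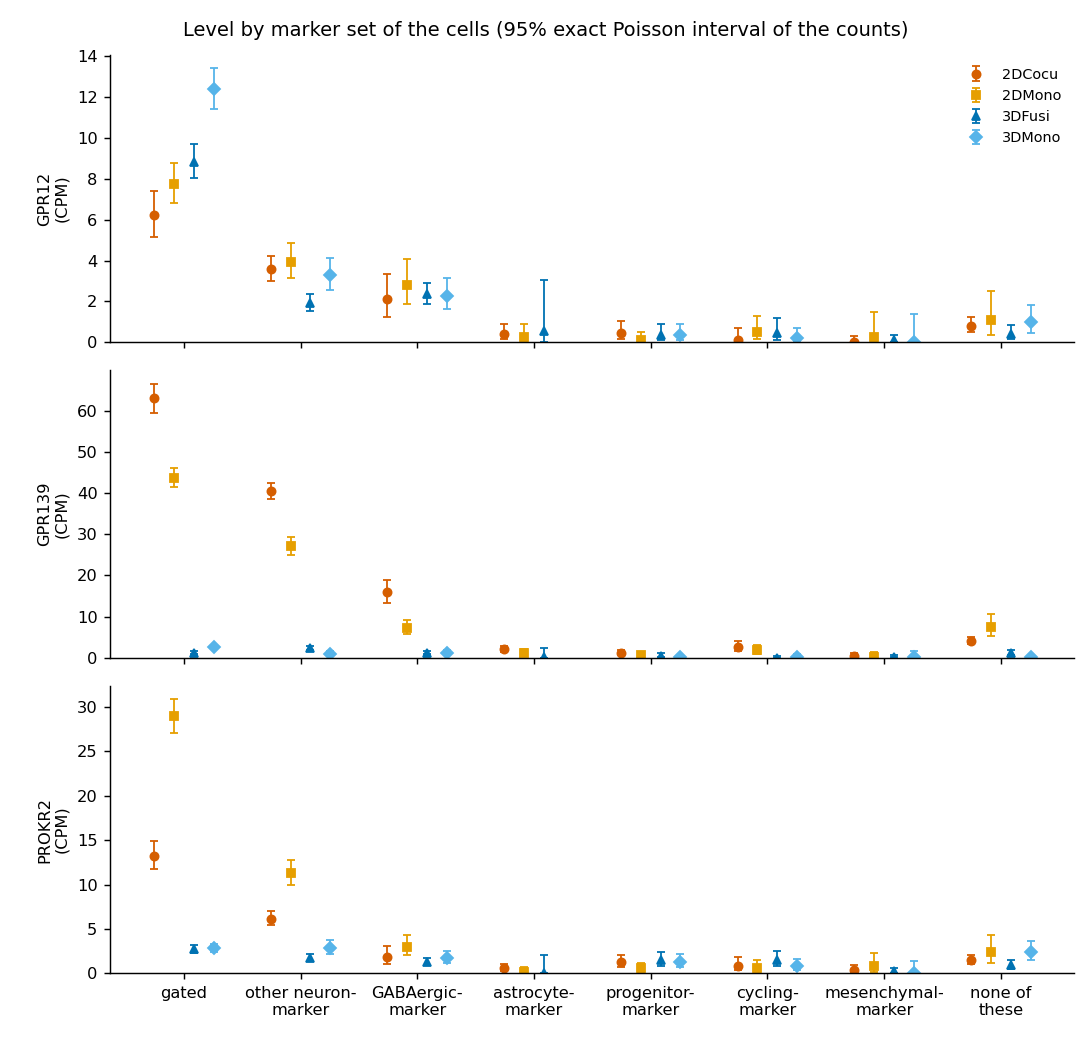
Level of each receptor (CPM, vertical axis) in cells sorted by marker set, for 2DCocu, 2DMono, 3DFusi and 3DMono. Points are counts pooled over tags, bars are 95% exact Poisson intervals that cover counting error only, and sets under 50 cells are left out. GPR12 was highest in gated cells of every arrangement shown, while GPR139 and PROKR2 stood high in gated and other neuron-marker cells of the 2-D arrangements.

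To set shares of cells side by side, each cell with 5000 or more counts was thinned to 5000. The 1948 cells below that depth were left out, so 6496 of the 6579 gated cells remained. GPR139 was then seen in 25.1% of gated cells in 2DCocu, 20.3% in 2DMono, 1.21% in 3DMono and 0.306% in 3DFusi. PROKR2 was seen in 7.14%, 15.0%, 1.41% and 1.68% of gated cells in the same order. GPR12 was seen in 4.39%, 5.09%, 6.25% and 6.04%. The background in mesenchymal-marker cells of all arrangements was 0.0352% for GPR12, 0.106% for GPR139 and 0.317% for PROKR2, so every share except that of GPR139 in 3DFusi lay well above it. The 3DFusi share of GPR139 had an exact 95% interval from 0.0834% to 0.782%, against 0.0218% to 0.308% for the background. Without thinning, GPR139 was seen in 50.8% of gated cells in 2DCocu, 47.8% in 2DMono, 4.48% in 3DMono and 3.47% in 3DFusi, at a median of 18146 counts per gated cell and 13807 per mesenchymal-marker cell.

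Few gated cells showed more than 1 receptor at that depth. Of all thinned gated cells, 83.4% showed none, 14.9% showed 1, 1.59% showed 2 and 4 cells showed all 3. GPR139 and PROKR2 met in 14 cells of 2DCocu, where independence would give 17.6, and in 46 cells of 2DMono, where it would give 33.4. Pooled over all arrangements they met in 60 cells against 25, a number that also carries the difference in level between arrangements. Without thinning, where depth is shared by all genes of a cell, the direction in 2DCocu was the other way. They then met in 118 cells of 2DCocu against 95.5, and in 245 of 2DMono against 211.

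The tags of 2DMono and 3DMono, the 2-D and 3-D arrangements named Mono, gave the largest contrast among these receptors that could be tested. GPR139 and PROKR2 were lower in 3DMono and GPR12 did not pass the test in either direction. What else differed between these arrangements was not tested, so format cannot be told apart from it. GPR139 in gated cells of 2DMono stood at 36.5 and 43.3 CPM in AcDop, 52.9 and 55.5 in AcMor, and 42.5 and 26.8 in Vehic. Its gated 3DMono levels were 3.17 and 3.93 CPM in AcDop, 1.82 and 0.607 in AcMor, and 3.39 and 2.09 in Vehic. The lowest 2DMono tag therefore lay far above the highest 3DMono tag. The difference was −4.16 on the log2 scale (SE 0.26, 6 tags against 6, adjusted p = 1.04e-09 by edgeR's quasi-likelihood test with Benjamini-Hochberg adjustment), or 17.8-fold lower. In all cells it was −3.97 (SE 0.25, adjusted p = 3.09e-08 by edgeR), or 15.6-fold lower.

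PROKR2, the prokineticin receptor, followed GPR139. Gated 2DMono cells held it at 21.5 and 12.5 CPM in AcDop, 29.2 and 32.1 in AcMor, and 30.7 and 13.9 in Vehic. Gated 3DMono cells held it at 2.77 and 3.04 CPM in AcDop, 3.15 and 2.43 in AcMor, and 2.37 and 2.10 in Vehic. These ranges did not overlap either, and the 3DMono tags varied little among themselves. The difference was −3.28 on the log2 scale (SE 0.25, adjusted p = 2.13e-08 by edgeR), or 9.69-fold lower. In all cells it was −2.32 (SE 0.32, adjusted p = 6.01e-05 by edgeR), or 4.99-fold lower. In gated cells the 3DMono levels of GPR139 and PROKR2 were low. How far these genes passed the filter on low counts through the 2DMono tags in the gated fit was not tested. Both also passed it in gated 3DMono tags fitted alone.

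GPR12 stood apart from both. Gated 2DMono cells held it at 7.16 and 2.62 CPM in AcDop, 7.50 and 5.35 in AcMor, and 8.46 and 3.96 in Vehic. Gated 3DMono cells held it at 10.3 and 6.44 CPM in AcDop, 14.4 and 1.21 in AcMor, and 16.2 and 2.69 in Vehic. The 3DMono range enclosed that of 2DMono, and the tag numbered 1 was the higher in all 6 pairs, in 2DMono as in 3DMono. The difference was 0.46 (SE 0.49, 95% interval −0.49 to 1.41, adjusted p = 0.529 by edgeR). In all cells it was 0.54 (SE 0.49, interval −0.42 to 1.51, adjusted p = 0.418 by edgeR). Differences within those intervals are not excluded by these tags.

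Many genes differed between 3DMono and 2DMono, and the count of 2 receptors called out of 3 is read against that. Of 21862 genes tested in all cells 38.0% were called, with 4467 lower and 3836 higher in 3DMono. Of 16278 tested in gated cells 27.4% were called. Genes whose 3DMono tags all lay below all 2DMono tags, as for GPR139 and PROKR2, made up 8.38% of genes in all cells and 5.58% in gated cells. The gated cells of the formats also differed in what they contained. Summed excitatory markers ranged from 3091 to 4006 CPM in 2DMono and from 4379 to 5907 CPM in 3DMono, with none of the 12 at 0 in any tag. Of those 12 excitatory markers, 6 were higher in 3DMono, among them NEUROG2 by 2.08 and FEZF2 by 1.46 on the log2 scale. There 3 were lower, among them SLC17A6 by 2.27 and NRN1 by 0.74. SLC17A6 encodes a vesicular glutamate transporter. Of the gate genes, NEUROD2 rose by 0.70 and the other 2 did not pass. Summed GABAergic markers ranged from 37.5 to 132 CPM and from 32.6 to 230 CPM, and summed astrocyte markers from 169 to 325 and from 155 to 331 CPM. Both pairs of ranges overlapped. Summed progenitor markers did not overlap, at 195 to 354 CPM in 2DMono and 356 to 603 in 3DMono, and summed cycling markers overlapped only slightly, at 89.0 to 263 and 254 to 380 CPM. The part of these shifts in the receptor results was not tested.

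**Figure D2:**
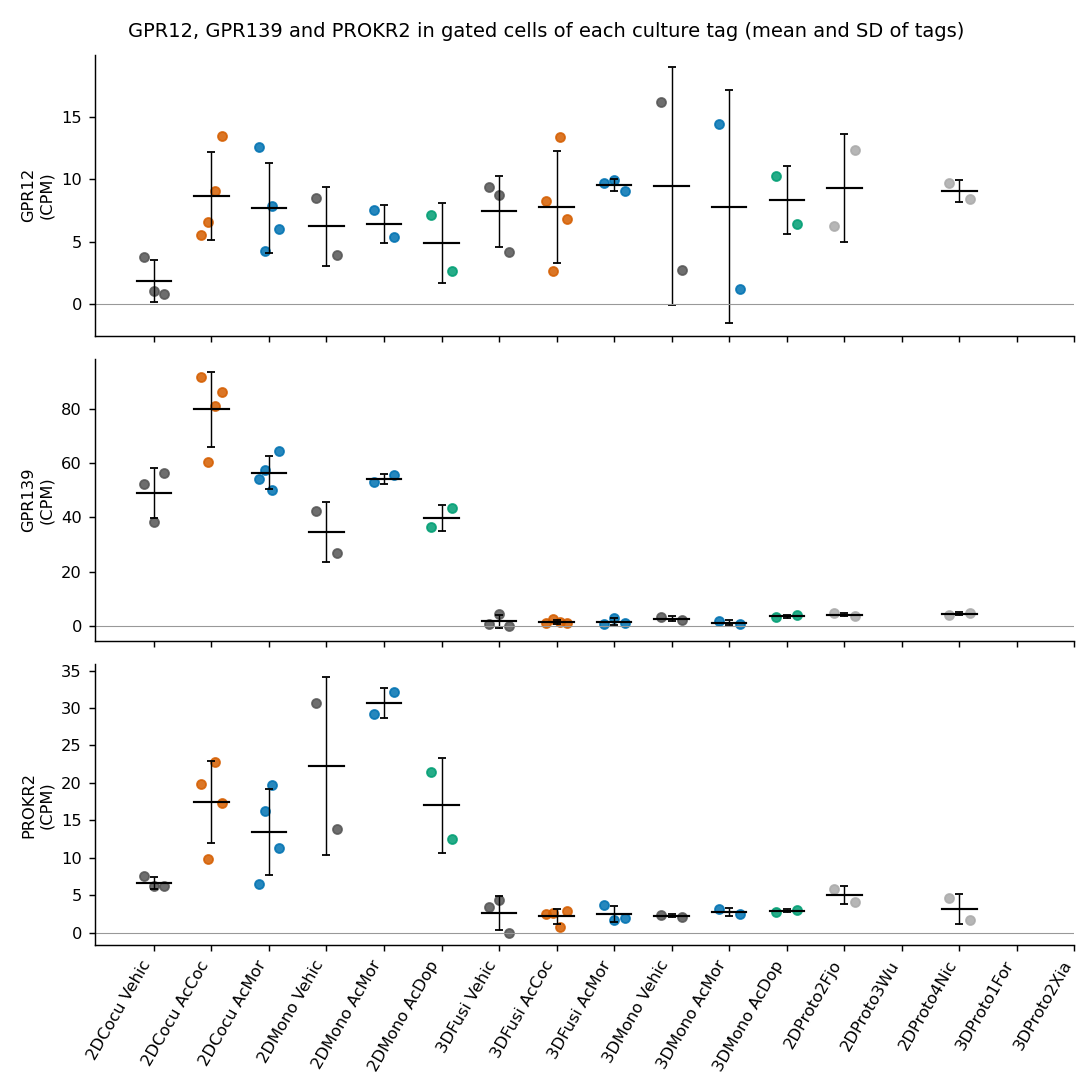
Level of each receptor in gated cells (CPM, vertical axis) by group. Each point is a tag with 20 or more gated cells, the bar is the mean and the whisker the SD. GPR139 and PROKR2 are high in 2DCocu and 2DMono and near the bottom of the axis in 3-D and also in 2DProto2Fjo (4.24 and 5.00 CPM) and 2DProto4Nic (4.57 and 3.17 CPM), while the GPR12 values of all these arrangements overlap.

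Neurons outside the gate showed the same split between 2DMono and 3DMono. In cells with neuron markers that failed the gate, the group means of GPR139 ranged from 28.3 to 36.8 CPM in 2DMono and from 0.722 to 1.23 CPM in 3DMono. Those of PROKR2 ranged from 8.15 to 14.9 CPM in 2DMono and from 2.14 to 2.90 CPM in 3DMono. These values are a description over 2 tags a group.

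Over all 9 arrangements the order of the receptors differed. For GPR139 in all cells, 2DCocu came first at 23.5 ± 8.33 CPM (SD, n = 12 tags) and 2DMono next at 19.7 ± 4.39 (n = 6), and these overlapped. A gap followed to 2DProto2Fjo at 2.58 CPM (mean of 2 tags), and from 3DProto2Xia at 1.65 down to 3DProto1For at 1.15 every neighbour overlapped, with 3DMono at 1.46 ± 0.525 and 3DFusi at 1.42 ± 0.871. The 2-D Proto arrangements thus sat with the organoids for GPR139, not with 2DMono. In gated cells 2DProto2Fjo stood at 4.70 and 3.77 CPM and 2DProto4Nic at 4.21 and 4.93 CPM, again far below the 26.8 CPM of the lowest 2DMono tag.

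For PROKR2 in all cells, 2DMono came first at 9.43 ± 4.05 CPM (n = 6), then 2DCocu at 4.43 ± 2.04 (n = 12) and 2DProto2Fjo at 4.07 CPM (2 tags), each overlapping its neighbour. Next were 2DProto3Wu at 3.14 CPM (2 tags), 2DProto4Nic at 2.21 (2 tags), 3DMono at 2.09 ± 0.596, 3DProto2Xia at 1.54, 3DProto1For at 1.46 and 3DFusi at 1.37 ± 0.778. The tags of 2DProto3Wu overlapped neither neighbour, at 2.63 and 3.66 CPM against a lowest of 3.74 in 2DProto2Fjo and a highest of 2.57 in 2DProto4Nic. The tags of 2DCocu, from 1.53 to 7.77 CPM, spanned the tags of these 2-D Proto arrangements. The gaps beside 2DProto3Wu were therefore no break across all arrangements. GPR12 ran from 5.19 CPM in 2DProto2Fjo and 4.63 ± 3.17 in 3DMono, through 2.85 ± 1.36 in 2DMono, 2.60 ± 1.56 in 3DFusi and 2.49 ± 1.71 in 2DCocu, to 1.92 in 2DProto3Wu, 1.86 in 2DProto4Nic, 1.17 in 3DProto2Xia and 0.731 in 3DProto1For, and every neighbour overlapped. In bulk sums such as these, fewer cells of a type and less RNA per cell cannot be told apart.

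**Figure D3:**
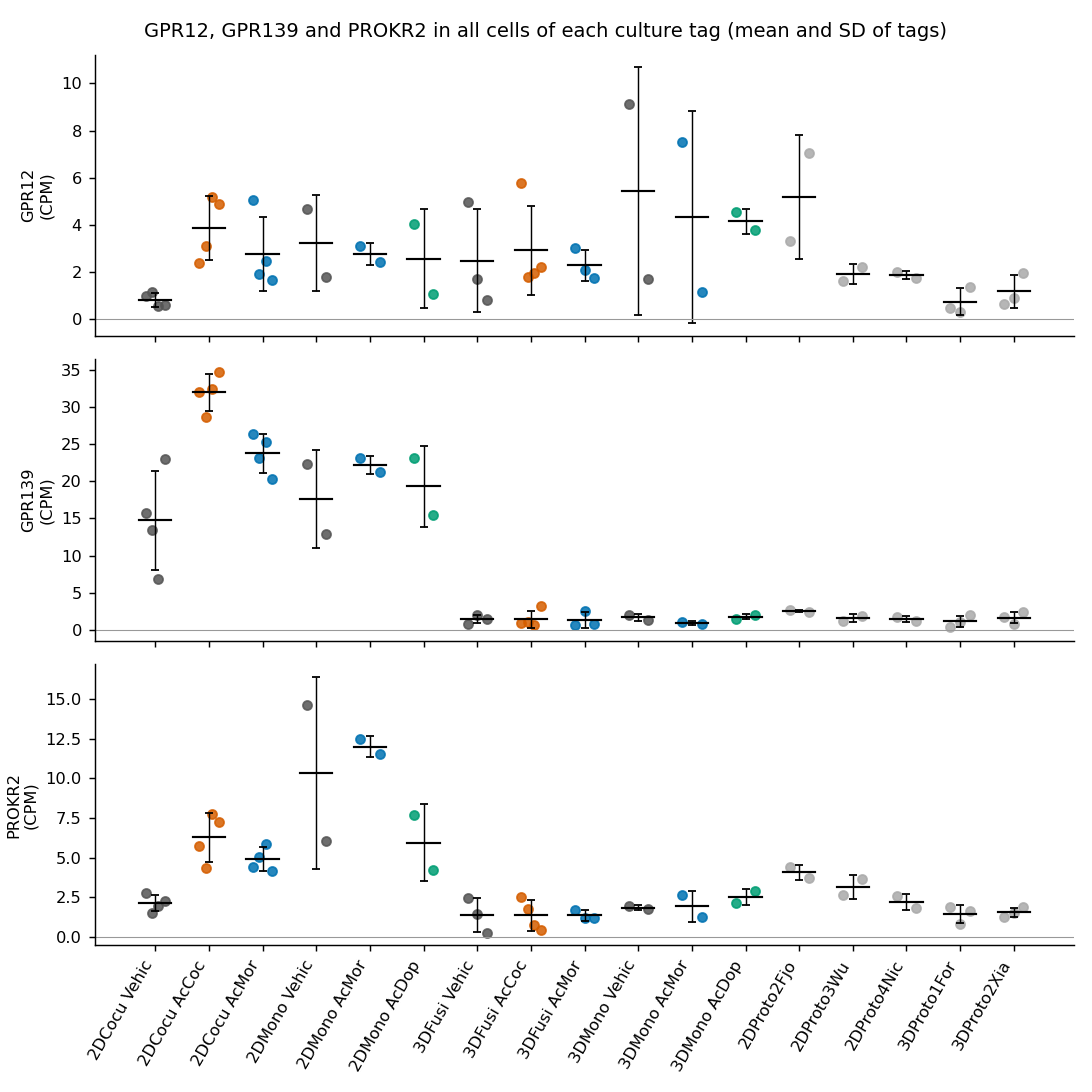
Level of each receptor over all cells (CPM, vertical axis) by group. Each point is 1 tag, the bar is the mean and the whisker the SD. GPR139 exceeds 6 CPM in every tag of 2DCocu and 2DMono and in none elsewhere, and GPR12 shows no such gap between arrangements.

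The level of GPR12 followed the share of gated cells. Over all 46 tags Pearson's r between CPM in all cells and percent gated was 0.84 for GPR12 (Spearman's rho 0.80), 0.34 for PROKR2 (rho 0.51) and 0.03 for GPR139 (rho 0.22). Within 2DCocu, 2DMono, 3DFusi and 3DMono taken separately, r for GPR12 ranged from 0.79 to 0.96. For PROKR2 it was 0.89 in 2DCocu, 0.92 in 2DMono, 0.74 in 3DFusi and 0.67 in 3DMono, and for GPR139 it was 0.76, 0.67, −0.31 and 0.59. These are descriptions without a test, since the level and the share of a tag come from the same cells and tags share one pool.

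**Figure D4:**
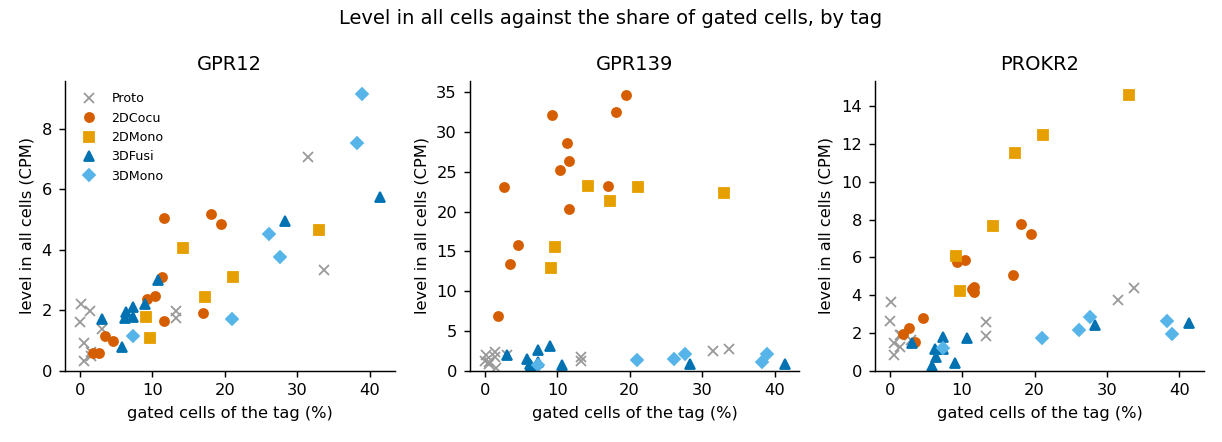
Level of each receptor over all cells (CPM, vertical axis) against the percentage of gated cells (horizontal axis), 1 point per tag, coloured by arrangement. GPR12 lies along one band over all 46 tags (r = 0.84), while GPR139 forms a high band of 2DCocu and 2DMono tags above a flat one.

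In 2DCocu, the arrangement that led to the choice of these receptors, all 3 stood higher in AcCoc than in Vehic. GPR12 in all cells was 2.38, 3.10, 5.18 and 4.86 CPM in the AcCoc tags, 5.04, 1.90, 2.46 and 1.64 in the AcMor tags and 0.981, 1.14, 0.575 and 0.582 in the Vehic tags. Every AcCoc and every AcMor tag lay above every Vehic tag. The group means were 3.88 ± 1.36 (SD, n = 4), 2.76 ± 1.56 (n = 4) and 0.819 ± 0.285 CPM (n = 4). PROKR2 was 5.76, 4.33, 7.77 and 7.26 CPM in AcCoc, 4.41, 5.06, 5.89 and 4.19 in AcMor and 2.78, 1.53, 1.95 and 2.25 in Vehic. Here too both treated groups lay wholly above Vehic. GPR139 was 32.1, 28.6, 32.5 and 34.7 CPM in AcCoc, 26.3, 23.2, 25.3 and 20.3 in AcMor and 15.8, 13.4, 6.91 and 23 in Vehic. For GPR139 the AcCoc tags lay above all Vehic tags, and the AcMor tags overlapped with Vehic through Vehic tag 4.

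As a description, the log2 difference of AcCoc from Vehic in all cells was 2.21 for GPR12 (SE 0.37), 1.59 for PROKR2 (SE 0.24) and 1.16 for GPR139 (SE 0.22). That of AcMor was 1.60 (SE 0.39), 1.23 (SE 0.24) and 0.73 (SE 0.22). AcCoc and AcMor share the Vehic tags, so the likeness of these values has no weight of its own. Between AcCoc and AcMor directly the differences were 0.61, 0.36 and 0.44 in the same order. Genes with every AcCoc tag above every Vehic tag made up 5.32% of the 21032 tested, and for AcMor 2.67%. edgeR called 6.09% of genes for AcCoc, 0.975% for AcMor and 0 between AcCoc and AcMor, where 913 had an unadjusted p under 0.05 and DESeq2 called 2. The AcCoc count of 1281 genes was 404 without Vehic tag 3, 422 without AcCoc tag 3 and 0 in one fit over the 4 arrangements. The AcMor count of 205 genes was 27 without AcMor tag 1, 41 without Vehic tag 3 and 43 with the tag number as a replicate block.

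The mix of cells moved with these levels. Gated cells made up 14.6 ± 5.00% of cells in AcCoc, 12.7 ± 2.94% in AcMor and 3.19 ± 1.19% in Vehic (SD, n = 4 tags each). After thinning cells to 5000 counts the shares were 5.31%, 4.88% and 0.939%. Over all cells the gate genes differed between AcCoc and Vehic by 1.5 for NEUROD2, 1.76 for NEUROD6 and 1.7 for TBR1 on the log2 scale. Of the 12 excitatory markers 8 were called higher, as were 3.60% of all genes. Beside these, the difference of GPR12 was larger, that of PROKR2 lay among them and that of GPR139 was smaller.

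Within gated cells all 3 receptors again stood higher on average in AcCoc than in Vehic. Vehic tag 3 had 14 gated cells and was left out of these values. GPR12 was 5.55, 6.58, 9.08 and 13.5 CPM in AcCoc, 12.6, 4.23, 7.85 and 6.00 in AcMor, and 3.78, 1.01 and 0.765 in the remaining Vehic tags. PROKR2 was 19.9, 9.88, 22.7 and 17.3 CPM in AcCoc, 6.54, 16.2, 19.7 and 11.3 in AcMor, and 7.61, 6.22 and 6.19 in Vehic. GPR139 was 91.6, 60.3, 80.9 and 86.2 CPM in AcCoc, 54.1, 57.6, 50 and 64.4 in AcMor, and 52.3, 38.4 and 56.3 in Vehic. AcCoc tags lay above all Vehic tags for each receptor, as for 11.4% of the 12904 genes tested. AcMor tags did so for GPR12 alone, against 6.90% of genes. The AcCoc difference was 1.98 for GPR12 (SE 0.57), 1.34 for PROKR2 (SE 0.39) and 0.65 for GPR139 (SE 0.19), and the AcMor difference 1.67 (SE 0.59), 1.01 (SE 0.40) and 0.20 (SE 0.19). Between AcCoc and AcMor 0.00775% of genes were called. The value of GPR12 rests on few counts in Vehic, and leaving out 1 tag at a time moved its AcCoc difference between 1.62 and 3.15.

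The gated cells were not the same mix in the 3 treatments. The summed level of the gate genes in them ran from 219.6 to 269.8 CPM in AcCoc, from 206 to 275 in AcMor and from 75.2 to 139 in Vehic, so gated Vehic cells were weaker in the very genes that define the gate. Summed GABAergic markers ran from 24.8 to 58.6 CPM in AcCoc, from 48.1 to 65.2 in AcMor and from 85.6 to 98.6 in Vehic, with up to 6 of the 8 markers at 0 in a tag. Summed choroid plexus markers ran from 13.5 to 30.9 CPM in AcCoc, from 26.4 to 51.3 in AcMor and from 34.9 to 64.6 in Vehic, and summed G protein transducers from 4681 to 4862, from 4958 to 5263 and from 5563 to 5908 CPM. Other sums overlapped between AcCoc and Vehic. Excitatory markers ran from 2469 to 3048 CPM in AcCoc and from 2357 to 2560 in Vehic, and neuron markers from 2652 to 3196 and from 2642 to 2927. Astrocyte, progenitor, cycling and mesenchymal markers overlapped too. Without gated cells that held 1 or more counts of at least 2 of GAD1, GAD2 and SLC32A1, which left 10 tags and 2 of Vehic, the AcCoc difference was 1.36 for GPR12 (SE 0.71), 1.41 for PROKR2 (SE 0.57) and 0.50 for GPR139 (SE 0.22). Without the 5% deepest cells of each tag, again with 10 tags, it was 1.63 for GPR12 (SE 0.81), 1.33 for PROKR2 (SE 0.63) and 0.38 for GPR139 (SE 0.24). In all cells that omission raised it to 2.41 for GPR12, 1.94 for PROKR2 and 1.63 for GPR139. The sign held in each of these AcCoc differences, while gated GPR139 with AcMor was −0.038 without the deepest cells. The receptors were chosen by these same tags, so the kept sign has no weight of its own. In neuron-marker cells outside the gate, GPR12 stood at 5.32 ± 1.64 CPM in AcCoc, 3.79 ± 2.94 in AcMor and 1.55 ± 1.07 in Vehic (SD, n = 4). PROKR2 stood there at 7.34 ± 0.261, 7.78 ± 2.04 and 2.74 ± 0.980 CPM, and GPR139 at 46.6 ± 8.56, 41.1 ± 12.2 and 34.9 ± 14.4 CPM. In these cells Vehic was the lowest group by its mean for each receptor. In cells outside the gate that held GABAergic markers the order differed. There GPR139 stood at 26.7 ± 12.2 CPM in Vehic, 16.9 ± 13.4 in AcMor and 8.20 ± 2.43 in AcCoc (SD, n = 4). GPR12 stood there at 2.29 ± 2.35, 0.921 ± 1.38 and 2.94 ± 2.77 CPM and PROKR2 at 1.79 ± 2.07, 0.944 ± 1.89 and 2.02 ± 2.11 CPM in the same order, so Vehic was not the lowest by its mean for any of the 3. Tags held only 14 to 92 of these GABAergic-marker cells, and Vehic tag 3 with 14 was kept in. GPR12 and PROKR2 had from 0 to 5 counts in each tag.

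No receptor passed the test for any treatment in the other arrangements. In 3DFusi, which was also given AcCoc and AcMor, GPR12 in all cells was 5.75, 1.79, 1.94 and 2.20 CPM in AcCoc, 3.00, 2.10 and 1.74 in AcMor and 4.96, 1.7 and 0.796 in Vehic. The first AcCoc tag and the first Vehic tag were the high ones, and the groups overlapped. The differences from Vehic were 0.23 for AcCoc (SE 0.64) and −0.23 for AcMor (SE 0.69), and in gated cells 0.03 (SE 0.43) and 0.22 (SE 0.44). GPR139 ranged from 0.649 to 3.16 CPM and PROKR2 from 0.265 to 2.54 CPM over the 3DFusi tags, with differences between −0.18 and 0.07. These fits did not pair tags by number. With the number as a replicate block the AcMor differences in all cells were 0.16 for GPR12, −0.042 for GPR139 and 0.21 for PROKR2. In gated cells of 3DFusi GPR139 and PROKR2 were under the filter on low counts, and no tag exceeded 4.39 CPM for either.

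In 2DMono, AcDop differed from Vehic in all cells by −0.68 for GPR12 (SE 0.63), 0.08 for GPR139 (SE 0.33) and −0.94 for PROKR2 (SE 0.46). AcMor differed by −0.44 (SE 0.57), 0.23 (SE 0.32) and 0.07 (SE 0.43). In 3DMono the AcDop differences were −0.44 (SE 0.99), 0.07 (SE 0.45) and 0.43 (SE 0.47), and the AcMor differences −0.18 (SE 0.96), −0.76 (SE 0.45) and 0.20 (SE 0.45). None was larger than the spread between tags by edgeR's test, and the large errors of GPR12 in 3DMono came with pairs as far apart as 9.14 and 1.7 CPM in Vehic. Among these treatment tests and their interactions with format, the only unadjusted p under 0.05 for a receptor was that of GPR139 in gated cells, where the AcMor effect was 1.29 lower on the log2 scale in 3DMono than in 2DMono (SE 0.52, adjusted p = 0.939 by edgeR). That interaction called 0 of 16978 genes, with 869 at an unadjusted p under 0.05 and 2 called by DESeq2.

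These tests called few genes of any kind. In all cells edgeR called 0 genes in 3DFusi (of 23676, with 394 for AcCoc and 177 for AcMor at an unadjusted p under 0.05, and 1 and 0 by DESeq2), 0 in 2DMono (of 19416, with 468 for AcDop and 1246 for AcMor unadjusted, and 13 and 17 by DESeq2) and 0 in 3DMono (of 22112, with 741 and 1925 unadjusted, and 15 and 173 by DESeq2). The count of 0 in all cells of 3DMono depended on the tags and the settings. For AcMor it was 400 without AcMor tag 2, 40 without Vehic tag 1, 28 without AcMor tag 1, 36 with the tag number as a replicate block and 747 without a filter on low counts. For AcDop it was 48 without Vehic tag 1 and 145 without the filter. In all cells of 2DMono AcMor called 188 and AcDop 38 without the filter. In gated cells edgeR called 0.00821% of 12174 genes, 1 gene, for each treatment in 2DMono. Without the filter that count was 85 for AcMor and 15 for AcDop. With a gate on all 3 genes Vehic kept only tag 1 in 2DMono. For AcMor no count is read from that gate or from leaving out an AcMor or Vehic tag, since edgeR then had 1 tag in a group. It called 0 of 13745 in 3DFusi (315 and 239 unadjusted, 2 and 0 by DESeq2) and 0 of 16882 in 3DMono (660 and 1334 unadjusted, 0 and 30 by DESeq2), where AcMor called 297 without AcMor tag 2 and 266 without the filter, and AcDop 14 without AcMor tag 2 and 65 without the filter. Between the organoid arrangements the fit used AcMor and Vehic tags alone, 6 of 3DFusi and 4 of 3DMono, since AcCoc and AcDop were each given in only 1 of them. With treatment in the fit, 3DFusi differed from 3DMono by −1.09 for GPR12 (SE 0.60, adjusted p = 0.379 by edgeR; −1.60 to −0.46 when 1 tag was left out), 0.03 for GPR139 and −0.51 for PROKR2, where 1.48% of 23861 genes (353) were called. That count ran from 67 without 3DMono Vehic tag 2 to 1563 without 3DFusi Vehic tag 1, and was 26 with the replicate block, where GPR139 differed by −0.99. The share of gated cells passed none of 6 exact two-sided permutation tests by treatment in these arrangements (adjusted p = 1 in each). The smallest unadjusted p possible was 0.333 with 2 tags against 2, 0.1 with 3 against 3 and 0.0286 with 4 against 3, too large for any of the 6 to pass once adjusted, so these tests say nothing about whether the shares differed.

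**Figure D5:**
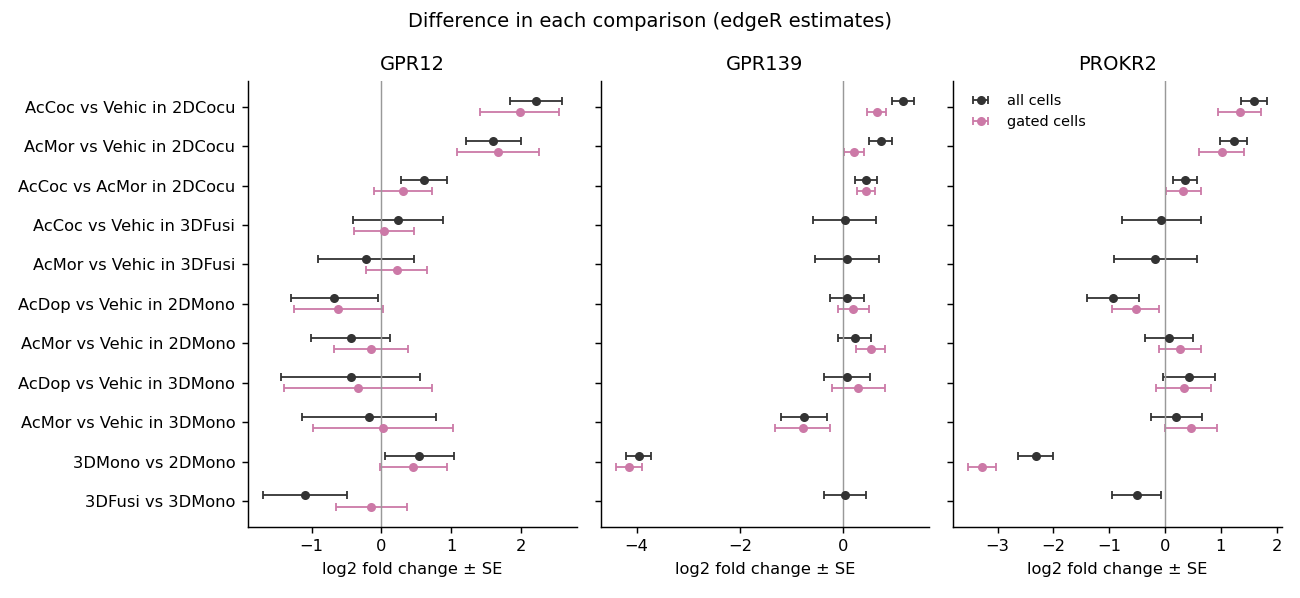
Difference of each receptor (log2 fold change, horizontal axis) in each comparison, in all cells and in gated cells. Points are edgeR estimates and whiskers 1 SE. The 2DCocu differences lie right of 0, those of GPR139 and PROKR2 between 3DMono and 2DMono far left of it, and the others lie within a few SEs of 0.

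Of the genes that work with these receptors, 3 were tested in all cells between 3DMono and 2DMono. MRAP2, an accessory protein that has been reported to modulate prokineticin receptors, stood at 5.76 ± 1.83 CPM in 2DMono and 2.00 ± 0.197 in 3DMono (SD, n = 6 tags each), a difference of −1.68 in all cells (adjusted p = 9.52e-06) and −2.19 in gated cells (adjusted p = 3.45e-05, both by edgeR). PROK2, a ligand of PROKR2, stood at 1.28 ± 0.190 CPM in 2DMono and 0.216 ± 0.237 in 3DMono. Its tags ran from 0.995 to 1.49 CPM and from 0.0204 to 0.660 CPM, and it passed the filter on low counts through the 2DMono tags, so these values are a description. In gated cells PROK2 ranged from 0 to 2.05 CPM over the 2DMono tags and was not tested. GPR3, the relative of GPR12, stood at 0.947 and 1.19 CPM and did not pass (0.15, adjusted p = 0.721 by edgeR). GPR6, GPR142, PROKR1 and PROK1 were under the filter, at 0.0435, 0.0327, 0.215 and 0.101 CPM over all cells, so the relative of GPR139 and the other prokineticin receptor were close to absent at this depth.

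Other orphan receptors moved in both directions. In gated cells 5 of 17 tested orphan class A receptors rose in 3DMono and 2 fell, with a median of 0.34 beside 0.05 for all genes, of which 12.3% rose and 15.1% fell. GPR176 fell by 3.91 and GPR26 by 2.02, while GPR61 rose by 2.33, GPR162 by 1.08 and GPR160 by 0.96 on the log2 scale. Of 35 genes for G proteins, adenylyl cyclases, phospholipases, arrestins and their regulators, 8 rose and 5 fell, against the same shares of all genes. ADCY8, a calcium-stimulated adenylyl cyclase, fell by 3.41, PLCB1, a phospholipase that Gq activates, by 0.94 and ARRB1, an arrestin, by 0.85. RGS16, which shortens G protein signals, rose by 1.30, ARRB2, the other widely expressed arrestin, by 1.08 and the receptor kinase GRK3 by 1.06. OPRM1, the mu opioid receptor, stood at 5.05 ± 0.648 CPM in 2DMono and 9.10 ± 1.65 in 3DMono (n = 6) and rose by 0.63 in all cells (adjusted p = 0.00624 by edgeR), while its gated difference of 0.18 did not pass. DRD2 did not pass either (−0.07 and 0.18), and the arrangement means of DRD1 lay between 0.108 and 0.493 CPM over 2DCocu, 2DMono, 3DFusi and 3DMono.

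The genes whose levels over tags were most like each receptor were listed by Pearson's r of log2(CPM + 1), over 46 tags and 20198 genes in all cells. They were ZBTB18 (0.79), NEUROD2 (0.79), THSD4-AS1 (0.79), SSTR2 (0.78) and IGSF3 (0.78) for GPR12. They were GDA (0.94), GFAP (0.93), GRM5P1 (0.93), LINC01104 (0.92) and EPHB6 (0.92) for GPR139, and NYAP2 (0.86), TGFBR1 (0.84), OTULINL (0.82), ELAPOR1 (0.82) and FAM126A (0.81) for PROKR2. NEUROD2 is a gate gene, and GFAP is an astrocyte marker that fell by 3.48 on the log2 scale in gated cells of 3DMono. In gated cells, over 30 tags and 19127 genes, GPR139 was most like PTK7, TDRD7, KCTD16, LINC01937 and DENND2C (0.96 each), and PROKR2 most like SETD7 (0.95), LATS2 (0.93), GRAMD1B (0.93), OTULINL (0.92) and NR3C2 (0.91). For GPR12 in gated cells the highest values were lower, at 0.74 for PHB, 0.69 for ENSG00000285976, 0.68 for LTB4R, 0.67 for SPINT2 and 0.66 for CHAMP1. GPR139 and PROKR2 correlated with each other at 0.88 over gated tags and GPR12 with GPR139 at −0.08. All of these tags share one pool, and how much of each value came from differences between arrangements was not tested, so they are given as a description.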

How the data were processed

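The deposited matrix gives expected counts per gene and cell, which need not be whole (54.3% of entries were). Per the submitters' processing notes the reads were handled with Salmon 1.7.0, alevin and Seurat 4.1.1 on hg38, with no role or order given. Per the deposited values every cell had at least 1006 genes and at most 10.0% mitochondrial counts, and no doublet caller was run here. The cell names, the other deposited item used, give each cell's tag, and 0 sample columns were left unused. Members and lists were chosen with earlier results of these data known.

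Expected counts were summed per tag, rounded, and tested with edgeR 4.0.16 (R 4.3.3, limma 3.58.1): robust quasi-likelihood fit, filterByExpr, TMM scaling, Benjamini-Hochberg adjustment over all genes tested, threshold 0.05. Fits of gated cells used tags with 20 or more. An interval of a log2 difference is the estimate plus or minus 1.96 SE. DESeq2 1.42.0, other scalings and filters, omitted tags and a number block were alternatives. CPM, thinning (to 5000 counts, seed 0), marker sets and correlations were computed in Python 3.11.15 with numpy 2.4.6, scipy 1.17.1 and pandas 2.3.3. Each cell went to the first set that applied, in the order gated, GABAergic, neuron, cycling, choroid plexus, mesenchymal, astrocyte and progenitor. The GABAergic set took cells with 1 or more counts of at least 2 of GAD1, GAD2 and SLC32A1. The sets after it took cells with 1 or more counts of 4 or more of their markers. Binomial and Poisson intervals cover counting error only. The fits were tested on simulated data: for 3DMono against 2DMono they recovered 98.0% of 4-fold and 61% of 2-fold changes in all cells (21532 genes), and for AcCoc in 3DFusi 57.3% and 1.02% (23268 genes).

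Same-numbered tags deviated together in all cells of 3DFusi (r from 0.160 to 0.606, over 0.1 in 9 of 9 pairs). Elsewhere r was not over 0.1 in every pair, so the numbers were taken to pair tags in 3DFusi alone. The pairing comes from the data and not from the labels, and the reported fits did not use it. The number entered only as the replicate block among the alternatives. In all cells of 3DMono same-numbered tags had r from 0.060 to 0.264, over 0.1 in 4 of 6 pairs. Named genes were the receptors, their relatives and ligands, the gate genes, up to 3 called genes with the largest rise and fall of each other list, the 5 genes most like each receptor, and OPRM1, DRD1 and DRD2. Some genes that this rule names are not reported here.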

Additional observations from a re-analysis of the deposited data

Results flagged for a closer look

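In all, 31 sets of values were looked at, each 1 measure in 1 group of 4 or more tags or over the 8 sublibraries. Of these, 2 held a tag far from the others, and it was the same tag in both. Chance alone flags about 1 set in 20. GPR12 in all cells of 3DFusi AcCoc was 5.75 CPM in tag 1, against 1.79 to 2.20 CPM in the other 3 tags. The percentage of gated cells in the same tag was 41.4%, against 6.43% to 9.05% in the others. That tag was also the deepest, at a median of 23631 counts per cell against 8276 to 12918 in the others. With cells thinned to 5000 counts before gating, the shares of the AcCoc tags ran from 2.98% to 11.6%. In gated cells of 3DFusi the difference of GPR12 between AcCoc and Vehic was 0.03 on the log2 scale (SE 0.43).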

How the results depend on the processing

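The 4 receptor results past the threshold, the falls of GPR139 and PROKR2 between 2DMono and 3DMono in all and in gated cells, kept their direction and their side of it under every alternative run, with a highest adjusted p of 0.0122 by edgeR or DESeq2. GPR139 ranged from −4.14 to −3.61 in all cells and from −4.47 to −3.76 in gated cells, and PROKR2 from −2.77 to −2.02 and from −4.19 to −3.02. The other 50 tested results passed in none of their alternatives. Over the 885 alternatives of the 54 results there were 102 changes of sign, in 35 results, all of them below the threshold throughout, and the cause was not tested.

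With tag numbers as a replicate block, no receptor's call changed. The block turned the AcMor difference in all cells of 3DFusi, where the pairing held, to 0.16 for GPR12, −0.042 for GPR139 and 0.21 for PROKR2. It turned GPR12 to 0.00091 for AcMor in gated 2DMono, 0.083 in all and 0.16 in gated cells for AcDop in 3DMono, −0.10 for AcMor in gated 3DMono and −0.14 for the gated AcMor interaction. Between 3DFusi and 3DMono, which share only number 1, it turned GPR139 in all cells to −0.99. Without a filter, PROKR2 for AcMor in all cells of 2DMono was −0.0013. With DESeq2, GPR12 was −0.12 for AcMor in gated 3DMono, −0.12 for the gated AcMor interaction and −0.0051 for the AcDop interaction in all cells, where GPR139 was −0.051, and −0.057 with RLE scaling. With Vehic tags alone, GPR139 differed by −0.39 between 3DFusi and 3DMono. Without the 5% deepest cells of each tag, the described 2DCocu differences in all cells were 1.63 (AcCoc) and 1.19 (AcMor) for GPR139 and 1.94 and 1.65 for PROKR2, and in gated cells 0.38 and −0.038 for GPR139 and 1.02 for GPR12 with AcMor. The same omission gave GPR139 −0.22 for AcCoc and −0.22 for AcMor in 3DFusi, −0.18 for AcDop in 3DMono, and −0.39 in all and −0.23 in gated cells for the AcDop interaction. It gave GPR12 −0.059 for AcCoc in gated 3DFusi, −0.15 for AcMor in gated 3DMono, and −0.13 and −0.17 for the AcDop and AcMor interactions in all cells, and PROKR2 −0.18 for AcMor in gated 2DMono. With a gate on all 3 genes Vehic kept only tag 1 in 3DFusi and in 2DMono. GPR12 was then −0.16 for AcCoc in 3DFusi and 0.0015 for AcMor in 2DMono. Without gated cells that held GABAergic markers GPR12 was 1.36 for AcCoc and 1.05 for AcMor in 2DCocu, −0.042 for AcCoc in 3DFusi and −0.091 for the AcDop interaction. With a gate at 0.5 expected counts GPR139 was −0.017 for the AcDop interaction. No value could be had with a gate on all 3 genes in 2DCocu, where Vehic tags kept under 20 cells. With cells thinned before gating, the share of gated cells for AcMor in 2DMono was 3.55 points higher (−1.87 as deposited), and in 2DCocu the excess was 4.37 points for AcCoc (11.4) and 3.94 for AcMor (9.49).

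The ranges over leaving out 1 tag at a time follow, as log2 differences, for each result that changed sign there and for GPR12 in gated 2DCocu. Of the results that kept their sign, GPR139 ran in gated cells from −2.79 to −0.76 for the AcMor interaction, from −2.22 to −0.31 for AcMor in 3DMono and from 0.30 to 1.04 for AcMor in 2DMono, and in all cells PROKR2 from 0.42 to 1.90 for the AcDop interaction and GPR12 from 0.11 to 0.80 for 3DMono against 2DMono (0.060 to 0.71 in gated cells), and, for 3DFusi against 3DMono, GPR12 from −1.60 to −0.46 and PROKR2 from −0.88 to −0.15. For AcCoc against Vehic in 2DCocu: in gated cells GPR12 from 1.62 to 3.15. For AcMor against Vehic in 2DCocu: in gated cells GPR12 from 1.31 to 2.84. For AcCoc against Vehic in 3DFusi: in all cells GPR12 from −0.52 to 1.41, GPR139 from −0.59 to 0.31 and PROKR2 from −0.91 to 0.75, and in gated cells GPR12 from −0.25 to 0.34. For AcMor against Vehic in 3DFusi: in all cells GPR12 from −0.62 to 0.95, GPR139 from −0.76 to 0.36 and PROKR2 from −0.60 to 0.63. For AcDop against Vehic in 2DMono: in all cells GPR12 from −1.75 to 0.44, GPR139 from −0.28 to 0.66 and PROKR2 from −1.41 to 0.038, and in gated cells GPR12 from −1.44 to 0.31, GPR139 from −0.046 to 0.70 and PROKR2 from −0.98 to 0.36. For AcMor against Vehic in 2DMono: in all cells GPR12 from −0.87 to 0.67, GPR139 from −0.14 to 0.81 and PROKR2 from −0.42 to 1.04, and in gated cells GPR12 from −0.45 to 0.76 and PROKR2 from −0.058 to 1.16. For AcDop against Vehic in 3DMono: in all cells GPR12 from −1.14 to 1.29 and GPR139 from −0.19 to 0.48, and in gated cells GPR12 from −0.98 to 1.62. For AcMor against Vehic in 3DMono: in all cells GPR12 from −2.26 to 1.55 and PROKR2 from −0.59 to 0.64, and in gated cells GPR12 from −3.07 to 1.95. For 3DFusi against 3DMono: in all cells GPR139 from −0.38 to 0.30, and in gated cells GPR12 from −0.43 to 0.44. For the AcDop effect in 3DMono minus 2DMono: in all cells GPR12 from −0.86 to 1.98 and GPR139 from −0.56 to 0.43, and in gated cells GPR12 from −0.62 to 2.26, GPR139 from −0.42 to 0.60 and PROKR2 from −0.030 to 1.28. For the AcMor effect in 3DMono minus 2DMono: in all cells GPR12 from −1.82 to 2.02 and PROKR2 from −0.80 to 0.68, and in gated cells GPR12 from −2.90 to 2.11 and PROKR2 from −0.68 to 0.61.

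Counts of genes called depended more on the setting. In all cells of 2DCocu, AcCoc called 2010 genes with DESeq2, 2474 without the deepest cells, 404 without Vehic tag 3, 422 without AcCoc tag 3 and 0 in a fit over 4 arrangements, and AcMor 696, 1276, 27 to 75 when any of 6 of the 12 tags was left out, 43 with the block and, in that fit, 0. In gated 2DCocu, AcCoc called 62 without the deepest cells, 16 without cells with GABAergic markers and 213 without Vehic tag 4, and AcMor 191 with DESeq2 and 0, 1 and 1 in those settings. Between 3DMono and 2DMono, Vehic tags alone called 3246 genes in all and 1424 in gated cells, and the gate on all 3 genes 1487. Between 3DFusi and 3DMono, DESeq2 called 1524 and 373, Vehic tags alone 5 and 1, the block 26 and 71, and leaving out 1 tag gave 67 to 1563 and 3 to 146. In 3DMono, where 0 genes were called for either treatment, AcMor called up to 400 in all and 297 in gated cells when 1 tag was left out, and 747 and 266 without a filter. GPR139 and PROKR2 were low in 3DFusi and 3DMono, where gated tags held a few CPM or 0, and the part of depth in this was not tested.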
